A study of Mus musculus with 4 samples.

Results

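The brain's CSF1R ligands and the sister receptors of CSF1R were followed across the vascular cells of the mouse. The genes are Csf1 and Il34, the ligands of the receptor CSF1R, then Csf1r itself, its relatives Kit and Flt3, and Kitl, the ligand of KIT. They were taken by symbol, and all 6 members were found among the 32285 genes of the files. CSF1R, KIT and FLT3 are receptor tyrosine kinases of the same family, with an outer part that binds a paired ligand and an inner kinase that signals to the PI3K, RAS-ERK and STAT routes. In the brain, CSF1R signalling keeps microglia alive, with CSF1 and IL-34 acting as its ligands. KIT ligand (stem cell factor) supports blood stem cells, mast cells and pigment cells, and FLT3 supports dendritic cell and blood progenitors.

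Cells came from brains of C57BL6 mice without meninges, cerebellum and olfactory bulbs, and were sorted for the endothelial surface protein CD31. The mice ate control diet or a diet with 1200 ppm PLX5622, an inhibitor of CSF1R that removes microglia, for 1 month. The comparison asks what microglial loss does to brain vessels. For each diet, 2 libraries were made (control 1 and 2, PLX5622 1 and 2) from 3 mice in all, so the libraries of a diet may share an animal. The spread behind each p-value for diet is that between libraries and may be technical. Comparisons between cell classes, and of diet responses between classes, took the library as a block. Their p-values rest on the spread left after that, which may be technical too. All groups passed the same CD31 gate, which limits how many microglia and mural cells the libraries can hold. The labels name no allele, sex or age.

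The libraries held 11186648 to 38600208 UMIs (molecules counted once per gene and cell). With at least 1000 UMIs, 500 genes and at most 10% mitochondrial UMIs, 1696 and 5509 control cells and 3989 and 3670 PLX5622 cells were kept. Their median depth was 3834 to 5921.5 UMIs, and any pair of libraries shared 1 to 6 kept barcodes. Clustering without the 6 genes gave 13142 endothelial-like cells, in which all 11 endothelial markers were detected in every library. They included 2203 arterial-like, 6786 capillary-like and 2109 venous-like cells. Outside the endothelium were 340 pericyte-like and 227 smooth muscle-like cells. Levels below are CPM, a gene's UMIs scaled to a common total over the summed cells, and log2 differences are from edgeR's quasi-likelihood test with Benjamini-Hochberg adjustment over all genes tested. A gene was called at an adjusted p under 0.05.

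The bases before the start sites of Csf1 and Kitl are shown because these ligands, both detected throughout the endothelium, carry the class and diet comparisons below. Csf1 lies on chromosome 3 from 107741048 to 107760469 on the minus strand (GRCm38, GENCODE M21, protein coding). Kitl lies on chromosome 10 from 100015630 to 100100416 on the plus strand. Each sequence is the 250 bases before the RefSeq start (GRCm38.p6), read 5′ to 3′ on the gene's strand, at chr3:107760470-107760719 for Csf1 and chr10:100015571-100015820 for Kitl. Capitals mark matches, on either strand, to the GC box (GGGCGG), the TATA box (searched with the letters TATAAA) and an NF-kB pattern. The NF-kB pattern was GGGA, then any 4 bases, then the pair CC.
Csf1: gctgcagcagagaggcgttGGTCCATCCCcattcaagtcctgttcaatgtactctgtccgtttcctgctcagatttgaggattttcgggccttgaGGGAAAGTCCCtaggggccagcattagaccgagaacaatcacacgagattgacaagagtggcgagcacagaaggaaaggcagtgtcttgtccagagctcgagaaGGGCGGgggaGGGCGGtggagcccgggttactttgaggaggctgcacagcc
Kitl: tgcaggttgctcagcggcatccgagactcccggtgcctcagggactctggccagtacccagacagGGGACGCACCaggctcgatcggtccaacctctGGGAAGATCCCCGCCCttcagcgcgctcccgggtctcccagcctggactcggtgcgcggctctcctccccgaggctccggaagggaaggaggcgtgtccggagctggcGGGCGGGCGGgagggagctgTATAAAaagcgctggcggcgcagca
The Csf1 window held 3 matches to the NF-kB pattern, at 231, 155 and 154 bases before the start, of which the last 2 overlap on opposite strands. It held 2 GC boxes and no TATAAA. The Kitl window held a TATAAA 25 bases before the start, 3 GC boxes and 3 matches to the NF-kB pattern, of which 2 overlap each other and the second of them also overlaps a GC box. Among 32851 promoters of the same length, 17.6% held the NF-kB pattern, 12.4% TATAAA and 32.7% a GC box. These matches describe the letters only, and distances are from the RefSeq start. For Kitl that start lies downstream of the GENCODE one, so most of its window is inside the GENCODE gene. The other members lie at chromosome 8 from 110741829 to 110805924 (Il34, minus strand), and at chromosome 5 from 75574916 to 75656722 (Kit, plus strand) and from 147330741 to 147400489 (Flt3, minus strand). No location is given here for Csf1r.

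Csf1, the colony-stimulating factor that CSF1R binds, had its highest level of the 5 vascular classes in venous-like cells and was higher there on PLX5622 diet. In venous-like cells Csf1 stood at 49.3 and 56.3 CPM in the control libraries and at 97.3 and 94.9 CPM in the PLX5622 libraries. Both PLX5622 libraries lay above both controls. In arterial-like cells Csf1 was 25.6 and 22.4 CPM under control diet, against 25.4 and 36.1 CPM with PLX5622, and in capillary-like cells 33.1 and 19.8 against 30.7 and 52.6 CPM. In these last 2 subtypes the diets overlapped. The 2025 endothelial-like cells with no subtype held 17.6 and 11.6 CPM under control diet, against 20.5 and 21.2 CPM with PLX5622, without overlap. Smooth muscle-like cells held 32.4 and 12.1 CPM of Csf1 in the controls against 11.98 and 5.25 CPM with PLX5622, from 3 to 11 UMIs a library, and pericyte-like cells 19.4 and 33.5 CPM against 15.96 and 35.4 CPM.

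Between classes, with the library as a block, Csf1 was higher in venous-like than in capillary-like cells by 1.15 ± 0.18 on the log2 scale (SE, adjusted p = 6.8e-04), where 12.9% of genes tested were called. It was lower in arterial-like than in venous-like cells (-1.40 ± 0.21, adjusted p = 1.7e-04), where 26.7% of genes were called. Arterial-like and capillary-like cells differed by -0.26 ± 0.22 (95% interval -0.74 to 0.22, adjusted p = 0.50), where 22.3% of genes were called. Over whole classes, the order of Csf1 levels therefore ran from venous-like cells down to a capillary-like and arterial-like pair that did not separate beyond its spread. Both calls were kept when any 1 library was left out. The class contrasts were not refitted without the Ackr1-led venous-like cluster described below. Smooth muscle-like cells differed from capillary-like cells by -1.17 ± 0.52 (adjusted p = 0.073), where 54.4% of genes were called. That contrast was called with DESeq2 (-1.03, adjusted p = 0.035), without droplets holding markers of another class (-1.29, adjusted p = 0.0011) and without control 1 (-1.63, adjusted p = 0.046). Pericyte-like cells differed from capillary-like cells by -0.26 ± 0.42 (adjusted p = 0.75), where 24% of genes were called. In the 106 pericyte-like cells with little endothelial RNA, described with Il34 below, Csf1 gave 0, 0, 0 and 2 UMIs, and there the difference was -2.91 ± 1.45 (adjusted p = 0.15).

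**Figure D1:**
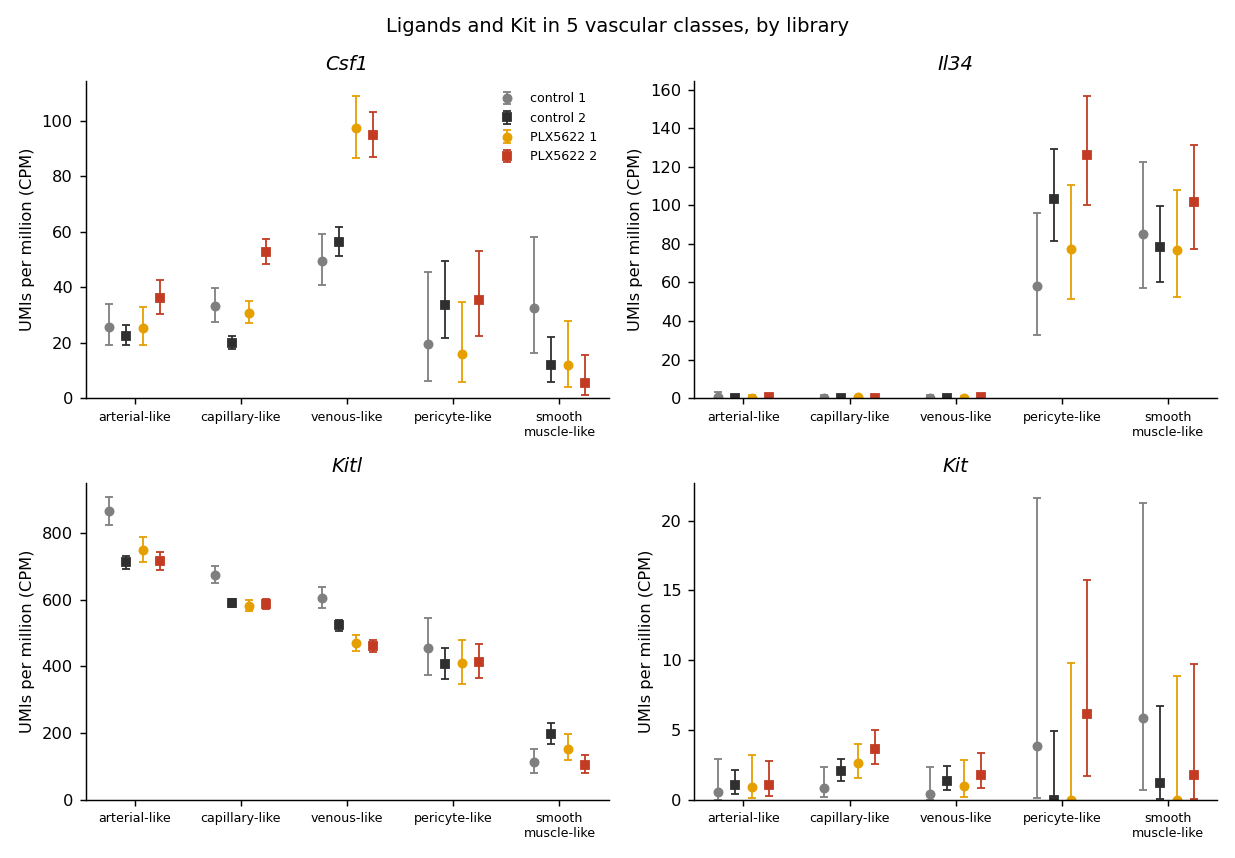
Levels of Csf1, Il34, Kitl and Kit (CPM, linear axes from 0) in 5 vascular classes. Each point is 1 library, and bars are exact 95% Poisson intervals that cover counting error only. Csf1 peaks in venous-like cells with the PLX5622 libraries at 97.3 and 94.9 CPM, Il34 is found in the 2 mural classes, and Kitl is highest in arterial-like and lowest in smooth muscle-like cells, an order of the mural classes that turns where endothelial RNA is low.

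Of the 11 endothelial clusters other than the 19 fenestrated-like cells, 1 small venous-like cluster held the most Csf1. This cluster is led by Ackr1 (the atypical chemokine receptor of venules), Lrg1 and Lcn2, and contained Csf1 at 125 and 161 CPM under control diet, against 191 and 289 CPM with PLX5622. The larger venous-like cluster, led by Cyp2e1 and Wnt5a, held 43.4 and 44.5 CPM against 67.9 and 50.3 CPM. In both clusters the PLX5622 libraries lay above the controls. The other 9 of these clusters ranged from 5.48 CPM to 84.3 CPM, the highest value being that of the Angpt2-led capillary-like cluster in PLX5622 2. That cluster held 56.9 and 53.2 CPM under control diet, against 40.7 and 84.3 CPM with PLX5622. It lay above the Cyp2e1-led venous-like cluster in every library but PLX5622 1, so the class order did not hold between these clusters. Both PLX5622 libraries also lay above both controls in the Htra3-led capillary-like cluster (31.0 and 20.8 against 35.1 and 42.3 CPM). The same held in the arterial-like clusters led by Gkn3 (25.5 and 23.3 against 26.4 and 37.0 CPM) and by Fbln5. The Nt5dc2-led cluster, with no subtype, showed it too (5.48 and 12.3 against 16.6 and 20.7 CPM). In the rest of these 9 clusters the diets overlapped. The fenestrated-like cells, 6 in control 1 and 13 in control 2, held Csf1 at 42.1 CPM from 1 UMI and at 128 CPM from 13 UMIs. The Ackr1-led cluster made up 18 of 277 and 67 of 819 venous-like cells on control diet and 91 of 441 and 96 of 572 on PLX5622. Because its leading genes Ackr1 (log2 difference 3.60 ± 0.42, adjusted p = 0.012) and Lcn2 (3.92 ± 0.24, adjusted p = 9.4e-06) were themselves called by diet in endothelial-like cells, these shares are given as denominators and not compared.

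**Figure D2:**
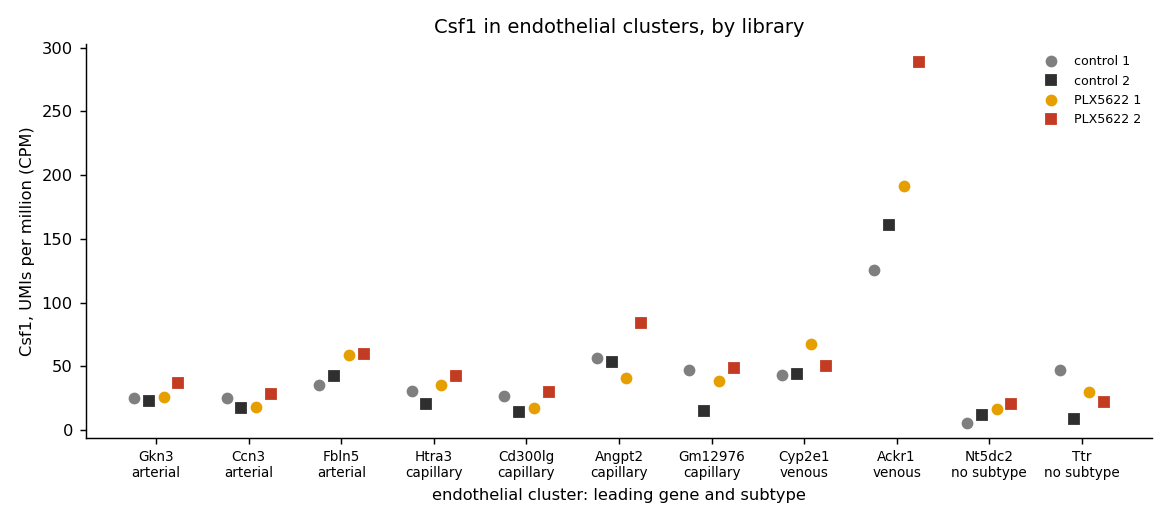
Csf1 (CPM, linear axis) in 11 endothelial clusters, each named by its leading gene and subtype, with 1 point for each library. Of the clusters plotted, which leave out the fenestrated-like cells, the Ackr1-led venous cluster stands highest in all 4 libraries, from 125 to 289 CPM.

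Over all endothelial-like cells Csf1 was 35.0 and 29.7 CPM under control diet, against 42.7 and 59.3 CPM with PLX5622, with no overlap between diets. It was called higher on PLX5622, by 0.73 ± 0.13 on the log2 scale (95% interval 0.44 to 1.01, adjusted p = 0.013), and was the only member of the 3 tested there that was called, against 1.15% of all genes. The call was lost without control 1 (0.78, adjusted p = 0.14), without control 2 (0.65, adjusted p = 0.23) and without PLX5622 2 (0.46, adjusted p = 0.088), and was kept without PLX5622 1 (0.93, adjusted p = 6.4e-09). In venous-like cells Csf1 was higher by 0.86 ± 0.12 (95% interval 0.61 to 1.10, adjusted p = 1.8e-05), where 1.24% of genes were called, and this held without any 1 of the 4 libraries. In the venous-like cells of the Cyp2e1-led cluster alone the difference was 0.41 ± 0.15 (adjusted p = 0.36), so the call ended when the Ackr1-led cluster was left out.

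The arterial-like difference in Csf1 was 0.44 ± 0.19 (95% interval 0.06 to 0.82, adjusted p = 0.49), where 0.847% of genes were called. The capillary-like difference was 0.83 ± 0.48 (95% interval -0.94 to 2.59, adjusted p = 0.80), where 1.65% of genes were called. The capillary-like difference passed the test without droplets that hold markers of another class (0.86, adjusted p = 4.6e-05), without a filter on low counts (0.83, adjusted p = 0.027) and without PLX5622 1 (1.14, adjusted p = 7.1e-09), and missed it in the other alternatives. It was 0.44 without control 2 and 0.35 without PLX5622 2, and the arterial-like difference was 0.13 without PLX5622 2. No difference between subtypes in the response of Csf1 was detected: the venous-like response minus the capillary-like one was -0.07 ± 0.32 (95% interval -0.81 to 0.66). Barcodes under 100 UMIs, which hold free RNA, carried Csf1 at 32.2 and 25.01 CPM in the controls and at 41.3 and 43.4 CPM on PLX5622. With free RNA subtracted, the endothelial-like difference in Csf1 was 0.73 (adjusted p = 0.011). The subtraction took out an estimated 0.63% to 0.96% of each endothelial-like sum, so it could move this difference little.

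Il34 codes for interleukin-34, the other ligand of CSF1R, and was found in mural cells, the pericytes and smooth muscle around vessels, with few UMIs in endothelial-like cells. Pericyte-like cells held Il34 at 58.3 and 103 CPM under control diet, against 77.1 and 126 CPM with PLX5622. Smooth muscle-like cells held 85.3 and 78.4 CPM under control diet, against 76.7 and 102 CPM with PLX5622. In both classes the diets overlapped. Endothelial-like cells held 14 Il34 UMIs among 75120104 (2, 3, 3 and 6 by library), a level of 0.10 to 0.29 CPM. Barcodes under 100 UMIs, which hold free RNA, carried Il34 at 2.84 to 8.57 CPM. Free RNA was estimated at 0.63% to 0.96% of the endothelial-like sums, so these levels are not a floor for the cells. The part of free RNA in the endothelial Il34 UMIs was not tested.

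Pooled over libraries, pericyte-like cells held 203 Il34 UMIs and capillary-like cells 7, a ratio of levels of 512 (exact 95% counting interval 244 to 1289). Smooth muscle-like cells held 184 UMIs, a ratio of 436 to capillary-like cells (207 to 1100). Il34 did not pass the low-count filter in any endothelial class and entered the class contrasts only through the mural sums, so these ratios are given without a test. By diet, Il34 differed by 0.28 ± 0.27 in pericyte-like cells (95% interval -0.28 to 0.85) and by 0.19 ± 0.26 in smooth muscle-like cells (-0.34 to 0.72). In the 2 mural classes edgeR called 0% and 0% of all genes by diet. No member was called there, none had an unadjusted p under 0.05, and DESeq2 also called 0 members, with 0 at an unadjusted p under 0.05.

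The pericyte-like class was a mixture of droplets. Of its 340 cells, 234 lay in clusters whose Cldn5, a tight junction gene of endothelial cells, stood at 5444 to 6274 CPM, against 7005 to 7940 CPM in endothelial-like cells. The other 106 cells (8, 31, 40 and 27 by library) had Cldn5 at 44.4 to 105 CPM. In these 106 cells Il34 stood at 210 and 382 CPM under control diet, against 194 and 622 CPM with PLX5622, in no order of diet. A cluster of 13 of these cells led by Ccl19, Steap4 and Col3a1, with Il34 among its leading genes, held 3 UMIs at 257 CPM in control 2, 7 at 550 CPM in PLX5622 1 and 47 at 1010 CPM in PLX5622 2, and had no cell in control 1. The 93 cells led by Kcnj8, a pericyte potassium channel gene, held 210 and 396 CPM in the controls against 138 and 342 CPM on PLX5622. PLX5622 2 also had more RNA of other classes in the 106 cells. Its 9 smooth muscle markers summed to 5274 CPM against 2200 to 2658 CPM in the other libraries, and its 6 fibroblast markers to 1001 CPM against 364 to 443 CPM. Their part in its Il34 level was not tested.

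The comparison of Il34 between the mural classes turned on this mixture. With all pericyte-like cells, smooth muscle-like minus pericyte-like cells gave -0.02 ± 0.19 (adjusted p = 0.95), where 37.1% of genes were called. With only the mural clusters holding little endothelial RNA it gave -1.57 ± 0.22 (adjusted p = 8.4e-10). In this setting pericyte-like cells numbered 8 in control 1, under the 20 per library that a class needed to enter. That limit holds for every contrast given for this setting, and its share of all genes called is not given here. Pooled, those pericyte-like cells held 136 Il34 UMIs at 394 CPM and the 200 smooth muscle-like cells 160 UMIs at 93.1 CPM, a ratio of 4.24 (95% counting interval 3.35 to 5.36). Of the 136 UMIs, 57 came from the 13 cells of the Ccl19-led cluster. The 93 Kcnj8-led cells alone stood at 288 CPM. Within the smooth muscle-like class, the cluster led by Fmod held Il34 at 119 to 180 CPM in the 4 libraries, above the 33.7 to 99.8 CPM that the other 3 clusters spanned.

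**Figure D3:**
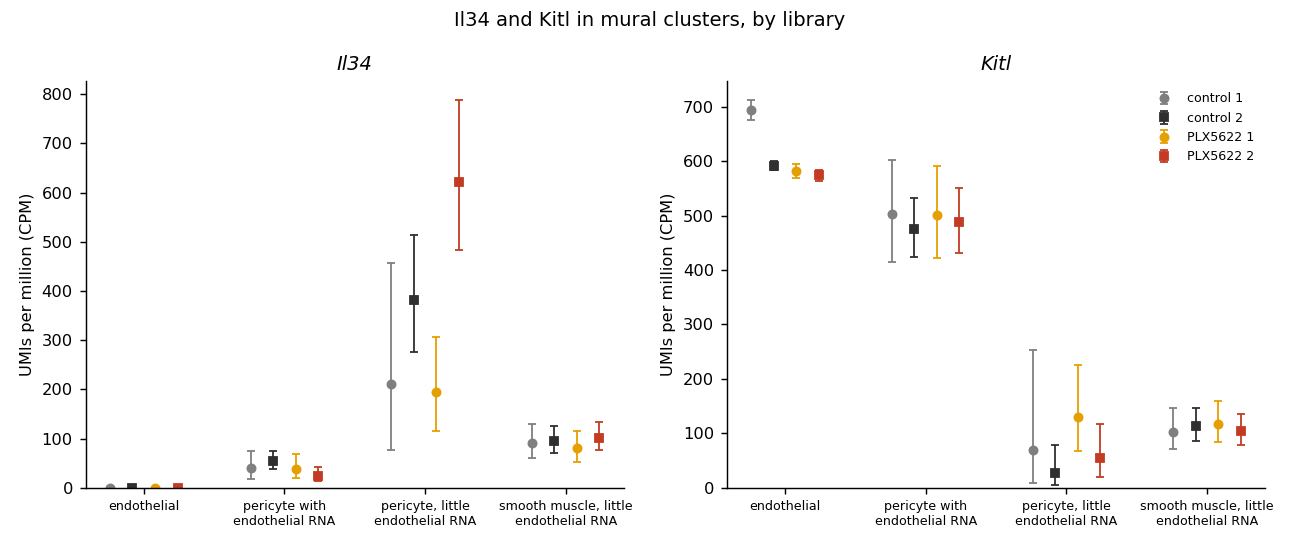
Il34 and Kitl (CPM, linear axes from 0) in endothelial-like cells, in pericyte-like clusters with much or little endothelial RNA and in smooth muscle-like clusters with little endothelial RNA. Points are libraries with exact 95% Poisson intervals. In pericyte-like cells with little endothelial RNA, Il34 reaches 194 to 622 CPM and Kitl 26.6 to 130 CPM.

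Kitl, the ligand of KIT, was found throughout the endothelium, highest in arterial-like and lowest in venous-like cells of the 3 subtypes. Arterial-like cells held Kitl at 867 and 712 CPM under control diet, against 750 and 716 CPM with PLX5622. Capillary-like cells held 676 and 590 CPM against 583 and 587 CPM, and venous-like cells 607 and 523 CPM against 471 and 463 CPM. Within each library the order was the same, arterial-like over capillary-like over venous-like. The Fbln5-led arterial-like cluster of 140 cells went against this order, with Kitl at 334 and 416 CPM in the controls against 433 and 458 CPM. It lay below the capillary-like level and the Cyp2e1-led venous-like cluster in every library. The largest capillary-like cluster (2418 cells, led by Htra3) also went against it, at 534 and 475 CPM against 484 and 468 CPM. The Cyp2e1-led cluster stood higher in every library, at 618 and 541 CPM against 500 and 499 CPM. The capillary-like clusters led by Cd300lg and Gm12976 lay above the Cyp2e1-led one in every library, and the Angpt2-led one lay on both sides. Kitl was higher in arterial-like than in capillary-like cells by 0.30 ± 0.07 on the log2 scale (adjusted p = 0.0011), and lower in venous-like than in capillary-like cells (-0.28 ± 0.07, adjusted p = 0.0050). From arterial-like to venous-like cells the difference was 0.58 ± 0.07 (adjusted p = 1.5e-08). Without PLX5622 1 the calls against capillary-like cells were lost (0.29, adjusted p = 0.057, and -0.26, adjusted p = 0.13), while that from arterial-like to venous-like cells was kept.

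The Kitl level of mural cells was low where endothelial RNA was low. The 106 pericyte-like cells with little endothelial RNA held Kitl at 70.0 and 26.6 CPM under control diet, against 130 and 54.1 CPM with PLX5622, from 23 UMIs in all. The 234 others held 475 to 502 CPM. Smooth muscle-like cells with little endothelial RNA held 103 to 117 CPM in all 4 libraries. Barcodes under 100 UMIs carried Kitl at 410 to 486 CPM. Over all pericyte-like cells Kitl was lower than in capillary-like cells (-0.59 ± 0.09, adjusted p = 6.8e-07), and it was lower in smooth muscle-like cells too (-1.94 ± 0.10, adjusted p = 1.1e-19). With only the mural clusters of little endothelial RNA these differences were -3.53 and -2.39. Smooth muscle-like minus pericyte-like cells gave -1.35 ± 0.12 (adjusted p = 2.3e-12), and 1.14 ± 0.35 (adjusted p = 0.010) when only mural clusters with little endothelial RNA entered, so that this direction turned.

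By diet, Kitl was not called in any class. In endothelial-like cells it stood at 694 and 592 CPM under control diet, against 582 and 574 CPM with PLX5622, a log2 difference of -0.10 ± 0.12 (95% interval -0.35 to 0.15, adjusted p = 0.83). Both PLX5622 libraries lay below both controls in endothelial-like, capillary-like and venous-like cells, and the diets overlapped in arterial-like cells. In venous-like cells the difference was -0.24 ± 0.11 (95% interval -0.46 to -0.02, adjusted p = 0.47). Without control 2 it passed the test (-0.32, adjusted p = 0.045). The arterial-like and capillary-like differences were both -0.07, with intervals of -0.35 to 0.20 and -0.34 to 0.19. No member was called by edgeR for a difference of diet responses between classes, with 0 at an unadjusted p under 0.05, and DESeq2 called 0 with 1 at an unadjusted p under 0.05. Against capillary-like cells these tests called 0.0253% of all genes for arterial-like, 0.0422% for venous-like, 0.0253% for pericyte-like and 0.118% for smooth muscle-like cells. Without PLX5622 1, the smooth muscle-like response of Csf1 was called lower than the capillary-like one (-2.95, adjusted p = 0.038), from few smooth muscle UMIs.

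**Figure D4:**
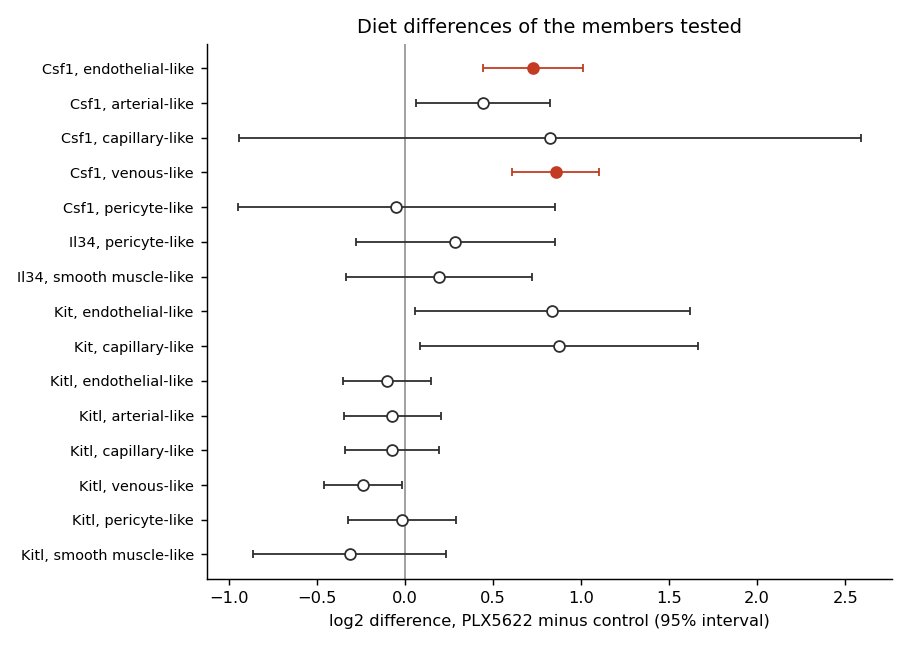
Log2 differences between diets (PLX5622 minus control) with 95% intervals, for each member and class that passed the low-count filter. Filled red points were called at an adjusted p under 0.05: Csf1 in endothelial-like cells (0.73) and in venous-like cells (0.86).

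Kit, the receptor for KIT ligand, was sparse, and most of its UMIs lay in 1 capillary-like cluster. Endothelial-like cells held 5 and 47 Kit UMIs on control diet and 27 and 51 on PLX5622, or 0.59 and 1.51 CPM against 1.83 and 2.47 CPM. Barcodes under 100 UMIs carried Kit at 0 and 1.56 CPM in the controls against 1.65 and 0.57 CPM, from 0 to 3 UMIs a library. The capillary-like cluster led by Angpt2 (a ligand that destabilizes vessels), Apln (a peptide of sprouting endothelium) and Meox1 held 3, 27, 20 and 35 of these UMIs. Kit took no part in the clustering but was among the leading genes of this cluster, so its level there is a description. These levels were 7.11 and 27.1 CPM under control diet, against 10.99 and 10.3 CPM with PLX5622, with control 2 the highest. The other capillary-like clusters held 0, 2, 0 and 2 UMIs, at most 0.29 CPM when pooled. The highest level of a single one was 0.55 CPM, in the Cd300lg-led cluster of PLX5622 2. Counts this small allow no order among the remaining clusters: the 6.56 CPM of the Fbln5-led arterial cluster in PLX5622 1 is 1 UMI. Pericyte-like cells held 1, 0, 0 and 4 Kit UMIs by library, and smooth muscle-like cells 2, 1, 0 and 1. Their mean levels over the 4 libraries were 2.51 and 2.21 CPM, against 2.27 CPM in capillary-like cells, so Kit was not shown to be lower in mural cells. The 4 pericyte-like UMIs of PLX5622 2 came from 3 of its 7 cells in the Ccl19-led cluster. The Kcnj8-led pericyte-like cluster held 0.

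The Angpt2-led cluster had 79, 171, 427 and 516 cells in the 4 libraries, and its Kit UMIs came from 3, 7, 10 and 15 of them. Angpt2 (log2 difference 2.28 ± 0.24, adjusted p = 0.0040) and Meox1 (0.77 ± 0.12, adjusted p = 0.0023) were called by diet in endothelial-like cells, so the size of this cluster is not compared between diets. Kit differed by diet by 0.84 ± 0.37 in endothelial-like cells (95% interval 0.06 to 1.62, adjusted p = 0.42) and by 0.87 ± 0.39 in capillary-like cells (adjusted p = 0.42), and was not called. The endothelial-like value was 2.16 without droplets holding markers of another class, 1.97 without control 2 and 0.53 without control 1, and the capillary-like value 2.03 without control 2, none of them called. Both PLX5622 libraries lay above both controls in each.

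**Figure D5:**
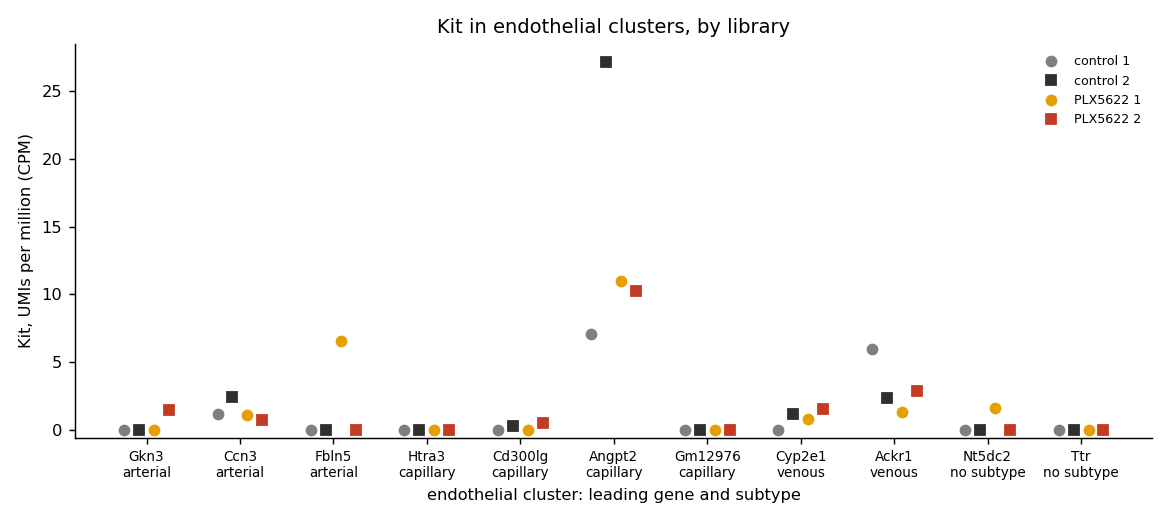
Kit (CPM, linear axis) in the same 11 endothelial clusters, 1 point for each library. The Angpt2-led capillary cluster reaches 7.11 to 27.1 CPM, and most other points lie at or near 0.

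Csf1r, the receptor that PLX5622 inhibits, was almost absent from vascular cells. The kept cells held 227 and 53 Csf1r UMIs in the control libraries and 1 and 4 in the PLX5622 libraries. Of the control UMIs, 226 came from 2 droplets of control 1 (86 and 140 UMIs) and 48 from 1 droplet of control 2. Each of these 3 droplets held all 12 microglial markers and 0, 0 and 3 Cldn5 UMIs. Outside them there were 1, 5, 1 and 4 Csf1r UMIs, with no gap between diets. Endothelial-like cells held 8 Csf1r UMIs in 8 of 13142 cells, at 0.06 to 0.19 CPM, and pericyte-like and smooth muscle-like cells 1 UMI each. Barcodes under 100 UMIs carried Csf1r at 18.9 and 2.08 CPM in the controls and at 0 and 0.57 CPM on PLX5622. Endothelial-like cells held 9 and 8 of the 12 microglial markers in the controls and 2 and 3 on PLX5622, at summed levels of 28.9 and 26.1 CPM against 23.8 and 27.1 CPM. The part of free RNA in the endothelial Csf1r UMIs was not tested. No droplet of the PLX5622 libraries held 4 or more microglial markers, which at 3 counts allows a share of up to 0.0752% and 0.0817% of kept cells. The controls had 2 such droplets among 1696 kept cells and 1 among 5509, too few to tell the diets apart. Csf1r did not pass the low-count filter in any class and was not tested.

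Flt3, the receptor of dendritic cell progenitors, gave 2 UMIs in all barcodes of the 4 libraries, 1 in an astrocyte-like cell of control 2 and 1 in an ependymal-like cell of PLX5622 1. Endothelial-like cells held 0 Flt3 UMIs, which allows a share of cells with a UMI of up to 0.0228%. For pericyte-like and smooth muscle-like cells the corresponding limits were 0.882% and 1.32%. Flt3 was therefore not detectable at this depth in vascular cells on either diet.

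Of 61 other genes of the CSF1R, KIT and FLT3 routes, 47 passed the low-count filter in endothelial-like cells, and 1 was called by diet, a count too small to set apart from the 1.15% of all genes called there. Spry4, a Sprouty protein that restrains RAS-ERK signalling below receptor tyrosine kinases, stood at 9.51 and 10.6 CPM under control diet, against 15.9 and 17.7 CPM with PLX5622. It was higher by 0.75 ± 0.14 (adjusted p = 0.0095), with no overlap between diets. This call was lost with DESeq2 (adjusted p = 0.053), without droplets holding markers of another class (0.14) and without control 1 (0.11) or control 2 (0.083). None was called lower, and 6 of the 47 had an unadjusted p under 0.05, against 10.7% of all genes. By role, the 23 adaptors and kinases tested had a median log2 difference of -0.04 with 0 called, the 12 brakes 0.04 with Spry4 called, and the 5 related receptors and ligands -0.05 with 0 called. The 4 transcription factors, 2 sheddases and 1 other IL-34 receptor tested gave 0 calls. The median over the 47 was -0.01, and over all 12730 genes 0.003.

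The genes whose levels ran most like each ligand were ranked by Pearson's r of log2(CPM + 1) over 20 sums (5 classes in each of 4 libraries). These sums share libraries, and the r is a description across classes. Like Csf1 were Kbtbd11 (r = 0.91), Zfp36l2 (0.89), Auts2 (0.87), Ahnak (0.85) and Pgm5 (0.84). Like Il34 were Foxd1, Rgma, Rarres2, Ndufa4l2 and Slc7a2, all with r = 0.99. Of these, Ndufa4l2 was among the pericyte markers used to name the class. Like Kitl were Plk2 (r = 0.99), Cd93, S1pr1 (a receptor for sphingosine-1-phosphate), H2-D1 (a class I MHC chain) and Id1, the last 4 with r = 0.98.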

How the data were processed

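Single-cell 3′ RNA libraries (10x Genomics v3.1 chemistry, per the labels' protocols) were deposited as raw UMI counts per gene and barcode, without cell calling, per the file headers and whole-number values. Tools and builds named in the submitters' processing notes were Cell Ranger 6.0.1, Seurat 4.0, mm10 and mm39 (which build underlies these values: not given in the sources used here). Coordinates come from GENCODE M21 (32158 of 32285 identifiers matched) and were not used for counting.

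From these counts, cells were filtered as stated in the report and clustered in Python 3.11.15 with igraph 0.11.9 (Leiden, 2000 variable genes, 30 components, 15 neighbours, resolution 0.5, endothelial-like cells again with 20 components and resolution 0.8). The 6 genes were among neither the clustering genes nor the markers. The suffix "-like" marks classes named by markers only. Clusters of endothelial cells led by markers of another class (671 cells) stayed out of the endothelial sums. No doublet caller was run. Leaving out droplets with 2 or more UMIs of other classes' markers was an alternative.

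Counts were summed per class and library and tested with edgeR 4.0.16 (R 4.3.3, quasi-likelihood, TMM, its default filter, two-sided 0.05), after tests on simulated data. Diet comparisons used 4 sums, class contrasts and interactions 20 sums with the library as a block. DESeq2 1.42.0 and other settings were alternatives. Those on mural clusters with little endothelial RNA, on added mixed clusters and on subtypes without 1 cluster were chosen after seeing the data. A class was to enter with at least 20 cells in every library. The pericyte-like cells with little endothelial RNA, 8 in control 1, fell short of this. The members, gene lists and rule for named genes (the members, called pathway genes, the 5 genes most like each member with a mean of at least 10 CPM) were chosen with earlier results of these data known. Counting intervals and limits cover counting error only.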

Additional observations from a re-analysis of the deposited data

How the results depend on the processing

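The calls that members were higher or lower were recomputed under 11 to 14 alternatives each. The call of Csf1 in endothelial-like cells was kept under every alternative except 3 of the 4 that leave out a library, which gave 0 to 1 called members. In the 3 subtypes together, 1 call was made. There were 2 without a filter on low counts, 2 without droplets holding markers of another class, 1 to 2 with a library left out, and 0 in subtypes without the clusters led by Ackr1 and Angpt2. Interactions gave 0 to 1 calls with a library left out, and pathway genes 0 to 1. Over all genes, 147 were called by diet in endothelial-like cells, 353 without a filter on low counts, and 64 to 208 with a library left out. Members called between classes numbered 10 of 18 tests, 8 to 11 with a library left out and 10 to 11 otherwise, in contrasts that called 12.9% to 54.4% of all genes. They include Il34 in both mural classes against capillary-like cells, where the low-count filter was passed only through the mural sums.

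The directions that turned belonged to differences not called, except Kitl in smooth muscle-like minus pericyte-like cells (1.14 with little endothelial RNA). With a library left out, Kitl by diet in arterial-like cells ranged from -0.171 to 0.036 (turned without control 1), and Il34 by diet from -0.191 to 0.934 in pericyte-like cells and from -0.047 to 0.375 in smooth muscle-like cells (both turned without PLX5622 2). Il34 in smooth muscle-like minus pericyte-like cells ranged from -0.138 to 0.119 (turned without control 2 or PLX5622 2) and was 0.027 with DESeq2 and 0.0425 at 2000 UMIs. The same contrast of Csf1 was 1.54 with little endothelial RNA. The venous-like minus capillary-like response of Csf1 ranged from -0.389 to 0.569 (turned without control 2 or PLX5622 2) and was 0.19 with DESeq2. The cause of these changes was not tested. With 1 library left in a diet, it is assumed to vary like the others.

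Replicate numbers are shared between diets, and deviations of same-numbered libraries correlated at r = 0.0875 over 11400 genes. With 2 libraries a diet, this single value cannot tell whether same-numbered libraries were handled together. With the replicate number as a block, 1 member was called in endothelial-like cells, 1 in the subtypes, 0 in mural classes and 1 pathway gene, and 195 genes were called in all. Depth limits Kit, Csf1r and Flt3.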

Other observations

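Some cells outside the vascular classes compared above also carried the ligands. In 14 fibroblast-like cells (1, 6, 5 and 2 by library) Il34 gave 1, 15, 7 and 6 UMIs, or 801, 245, 223 and 336 CPM, and Csf1 gave 0, 7, 3 and 2 UMIs. Kitl gave 0 UMIs there in each library. Kit gave 0, 1, 4 and 1 UMIs in these cells. The 4 of PLX5622 1 came from 1 cell. In 19 fenestrated-like cells, found in the control libraries only (6 and 13 cells), Csf1 gave 1 and 13 UMIs and Kitl 8 and 21, the latter at 337 and 207 CPM. In 87 astrocyte-like cells Csf1 was 50.6, 43.5, 33.2 and 31.7 CPM from 3, 14, 1 and 6 UMIs, and Il34 gave 0 UMIs. These cells are too few for a test. The 373 erythroid-like droplets (21, 127, 117 and 108 by library) lay in clusters that also held endothelial RNA. They carried Kitl at 471 and 484 CPM in the controls against 319 and 325 CPM on PLX5622. Csf1 stood there at 0 and 28.9 CPM against 26.2 and 57.7 CPM, and no diet test was run on these droplets.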
